A study of Mus musculus with 6 samples.

Results

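The genes described here drive cells into S phase, copy DNA and carry out mitosis. 38 genes were listed by name, and 37 of them had at least 1 probe set that the platform annotation assigned to that gene alone, among 18194 genes measured in all. Ccnb1, which encodes cyclin B1, was not analysed here. Where a gene had several probe sets, the brightest one on average was read. The 37 genes fell into 6 regulators of S phase entry (the D and E cyclins with E2f1), 13 replication genes and 18 mitosis genes. A gene entered the tests if 3 or more arrays read above 4 (log2), which all 37 did, and their means over the arrays ran from 8.41 to 13.49.

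Expression was measured on 6 Affymetrix Mouse Genome 430 2.0 arrays of mandibular arch from mouse embryos of the C57BL/6 strain at E10.5 (E, embryonic day). 3 arrays were labelled Tbx1+/+ and 3 Tbx1-/-, that is, homozygous for loss of the T-box factor gene Tbx1, which is needed for pharyngeal development (which allele was used is not stated in the labels). Arches from 3 embryos of a genotype were pooled. It is unclear from the labels if the 3 arrays of a genotype share a pool, so the spread between them, on which every p-value rests, may be technical. The comparison asks whether the proliferation programme of the arch differs between the genotypes.

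A cell commits to division in G1, when D cyclins with Cdk4 or Cdk6 phosphorylate the retinoblastoma protein and release E2F factors. E2F targets include the E cyclins and the genes that license origins and supply nucleotides. The kinases, kinesins and centromere proteins of mitosis are switched on later, largely through the MuvB complex with B-Myb and FoxM1 at promoter elements called CHR, often beside CCAAT boxes bound by NF-Y. The arch at this stage is a rapidly growing outpouching of neural crest mesenchyme around a mesodermal core. In whole tissue, fewer cycling cells and less RNA per cycling cell cannot be told apart.

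E2F and CHR promoter words differed in frequency between the replication and mitosis genes. These roles are the ones the elements are known for, as described above, so the split is a description and not an independent result. RefSeq windows (GRCm38.p6) of 300 bases, from 250 before to 50 after the annotated start, were matched for 29 of the 37 genes, and words were searched on both strands. The E2F words were TTTCCCGC, TTTGGCGC, TTTCGCGC and TTTGCCGC, the CHR words TTTGAA and TTCGAA, and the CCAAT word CCAAT. E2F words occurred in 6 of 11 replication windows and in 1 of 15 mitosis windows, against 3.63% of the 12812 windows of genes tested. In the lists of other cell cycle genes compared below, they stood in 8 of 33 other replication windows and 3 of 44 other mitosis windows. In the list of G1 kinases with the retinoblastoma and E2F families they stood in 8 of 16. CHR words showed the opposite split, with 13 of 15 mitosis windows and 2 of 11 replication windows, against 14.2% of the windows of genes tested. They stood in 30 of 44 other mitosis windows, 7 of 33 other replication windows and 5 of 16 windows of the G1 list. A CCAAT word stood in 14 of 15 mitosis and 8 of 11 replication windows, against 38.0% of the windows of genes tested. CHR and CCAAT words occurred together in 13 of 15 mitosis windows, against 5.85% of the windows of genes tested. None of the words was found in the windows of Ccnd3, Ccne1 or E2f1, the 3 matched regulators of S phase entry. A word match is a description of letters, not a bound site. Only these exact words within the 300-base windows were searched, so a window without a word does not show that a gene lacks the element.

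6 promoters are printed from 250 bases to 1 base before the start, 5′ to 3′ on the gene's strand, with the words in capitals. Mcm6 and Cdc6 stand for replication genes with E2F words, Cdk1 for a gene with all 3 kinds, Cdc20 and Kif11 for mitosis genes with CHR and CCAAT words, and Ccne1 for a window with none. In Mcm6 (chr1:128359706-128359955, minus strand) E2F words begin at -110, -106 and -47, and the first of them shares bases with the next. In Cdc6 (chr11:98907901-98908150, plus strand) the E2F word begins at -138. In Cdk1 (chr10:69352913-69353162, minus strand) the E2F word begins at -131 and CHR words at -71 and -15. The CHR word begins at -18 in Cdc20 (chr4:118437344-118437593, minus strand) and at -19 in Kif11 (chr19:37376132-37376381, plus strand). The Ccne1 stretch is chr7:38107491-38107740 on the minus strand.
Mcm6: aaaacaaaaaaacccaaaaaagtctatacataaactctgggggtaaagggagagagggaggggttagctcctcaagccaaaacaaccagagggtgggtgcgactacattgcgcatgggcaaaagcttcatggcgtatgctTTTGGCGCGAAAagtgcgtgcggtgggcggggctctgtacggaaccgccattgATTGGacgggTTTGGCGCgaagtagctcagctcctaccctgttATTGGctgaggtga
Cdc6: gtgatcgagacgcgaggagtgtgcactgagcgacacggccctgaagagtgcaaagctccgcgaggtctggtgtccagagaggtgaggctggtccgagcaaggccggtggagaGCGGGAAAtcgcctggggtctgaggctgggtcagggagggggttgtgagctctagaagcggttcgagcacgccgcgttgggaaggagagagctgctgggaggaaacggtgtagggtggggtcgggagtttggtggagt
Cdk1: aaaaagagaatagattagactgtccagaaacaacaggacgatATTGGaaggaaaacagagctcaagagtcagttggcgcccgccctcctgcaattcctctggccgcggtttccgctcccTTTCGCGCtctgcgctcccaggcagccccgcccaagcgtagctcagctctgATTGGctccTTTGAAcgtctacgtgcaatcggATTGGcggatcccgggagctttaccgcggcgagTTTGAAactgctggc
Cdc20: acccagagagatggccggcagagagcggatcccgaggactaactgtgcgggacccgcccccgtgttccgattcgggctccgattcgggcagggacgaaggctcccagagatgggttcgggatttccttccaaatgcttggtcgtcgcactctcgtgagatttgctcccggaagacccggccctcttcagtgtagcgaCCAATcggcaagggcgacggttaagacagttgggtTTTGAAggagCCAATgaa
Kif11: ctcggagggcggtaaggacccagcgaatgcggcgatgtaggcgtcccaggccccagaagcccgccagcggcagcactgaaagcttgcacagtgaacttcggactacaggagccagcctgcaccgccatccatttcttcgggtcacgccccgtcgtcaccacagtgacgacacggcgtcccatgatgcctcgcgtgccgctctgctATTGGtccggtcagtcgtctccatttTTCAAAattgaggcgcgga
Ccne1: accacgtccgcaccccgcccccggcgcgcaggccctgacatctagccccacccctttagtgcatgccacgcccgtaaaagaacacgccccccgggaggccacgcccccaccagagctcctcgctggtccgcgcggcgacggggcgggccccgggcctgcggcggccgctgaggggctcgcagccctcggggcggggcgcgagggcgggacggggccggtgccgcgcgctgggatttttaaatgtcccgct

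**Figure D1:**
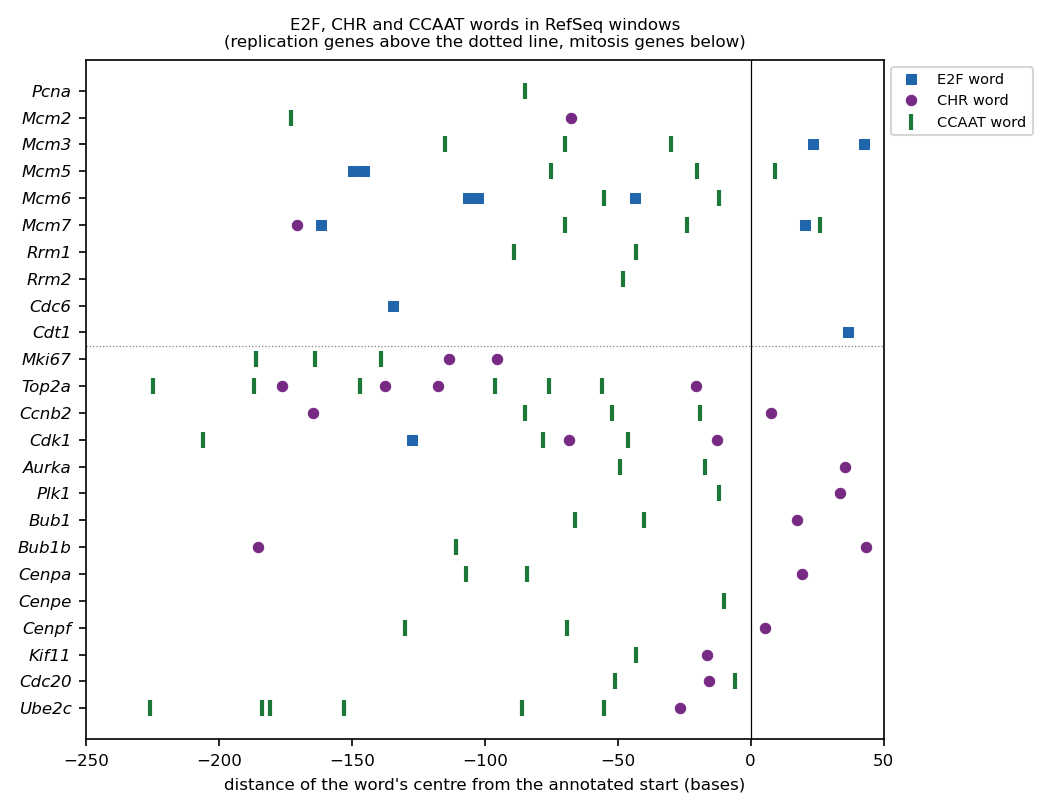
Each row is a gene with at least 1 word, and the horizontal axis is the distance in bases of a word's centre from the annotated start (0); squares are E2F words, circles CHR words and green bars CCAAT words. Squares lie almost all among the replication genes, with Cdk1 the 1 mitosis gene to hold one, while circles lie mostly among the mitosis genes, many of them close to the start.

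Several features of the arrays bear on what follows. Array medians lay between 6.08 and 6.15. Of 14 fixed markers of mandibular mesenchyme, such as Hand2 and Prrx1, all 14 lay above the filter, with summed linear levels of 31223 to 33310 on the Tbx1+/+ arrays and 31487 to 32944 on the Tbx1-/- arrays. Tbx1 itself was not lower where labelled Tbx1-/-: it read 6.93, 7.31 and 6.92 on the Tbx1+/+ arrays and 7.59, 7.50 and 7.30 on the Tbx1-/- arrays, and where its 1 probe set lies relative to the disrupted part is not given, so it does not check the labels. Directions follow the labels. Tbx1-/- replicate 3 stood apart. Placental trophoblast genes were far higher on it, Prl7a1 at 13.28 against at most 4.76 elsewhere and Prl4a1 at 13.19 against at most 6.04. 11 fixed trophoblast markers had a probe set, and 6 of them passed the filter. The other 5 read above 4 on too few arrays, but all 5 were highest on this array: Prl7d1 at 10.95, Prl8a9 at 10.85, Ctsj at 10.78, Tpbpa at 5.01 and Ctsq at 4.56, against at most 4.02 elsewhere. The summed level of the 11 was 30171 on this array, 792 and 750 on the other Tbx1-/- arrays and 653 to 732 on the Tbx1+/+ arrays. The summed level of macrophage markers was 4158 on it (560 to 844 elsewhere) and that of primitive erythroid markers 34071 (39553 to 41484 elsewhere). The erythroid sums were 41118 and 39553 on Tbx1-/- replicates 1 and 2. All 8 erythroid markers tested had lower means on the Tbx1-/- arrays, none called, with a median difference of -0.14. Epithelial markers summed to 13783 to 15939 on the Tbx1+/+ arrays and to 16818, 16108 and 27601 on Tbx1-/- replicates 1, 2 and 3, so all 3 Tbx1-/- arrays lay above the others and replicate 3 farthest. 1 cell type list was lower on every Tbx1-/- array: 8 skeletal muscle progenitor markers summed to 985 to 1326 on the Tbx1+/+ arrays and to 376, 535 and 424 on the Tbx1-/- arrays. All 8 of these markers had lower means, 2 of them called, with a median difference of -0.85. Counts and medians of the roles are given with and without replicate 3, as are the values of several single genes.

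No replication or mitosis gene differed between the genotypes past the threshold. In limma fitted over 16074 genes with Benjamini-Hochberg adjustment, 0 of 37 passed an adjusted p of 0.05, every adjusted p was 1.00, and 0 had an unadjusted p under 0.05 (2.68% of all genes did), the lowest being 0.0939 for Cenpe. Over all genes 6 passed (0.0373%), 2 higher (0.0124%) and 4 lower (0.0249%), and 10 passed with the replicate number as a block, 4 higher and 6 lower. The differences were small as well as uncalled. They ran from -0.16 to 0.005 on the log2 scale, and 16.9% of all genes tested differed by more than the largest of them. The 95% intervals of the 37 differences together spanned -0.37 to 0.29, that is 0.771-fold to 1.23-fold. For comparison, the same fit put Tcf21, a factor of the mesodermal muscle core, at -1.53 (SE 0.13, adjusted p = 0.0184 in limma), from a mean of 7.15 on the Tbx1+/+ arrays to 5.61. Without Tbx1+/+ replicate 3 no gene passed, and 504 had an unadjusted p under 0.05 in limma.

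**Figure D2:**
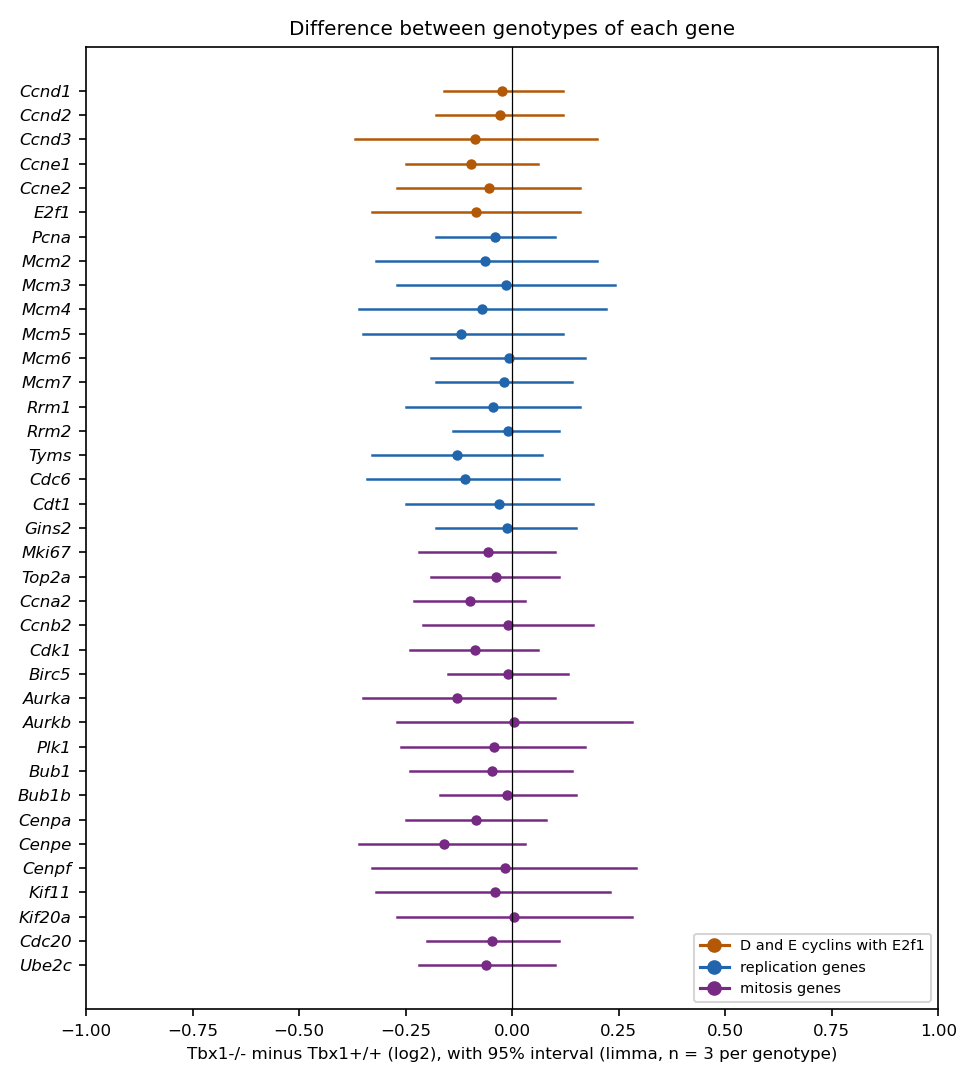
Points are the difference between genotype means of each gene, Tbx1-/- minus Tbx1+/+ on the log2 scale, and bars are 95% intervals from limma with 3 arrays per genotype; colours mark the 3 roles. Every interval includes 0, and none reaches below -0.37 or above 0.29.

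The D and E cyclins with E2f1 had a median difference of -0.07, against -0.006 over all genes tested. Ccnd1, cyclin D1, a growth factor sensor of G1, read 12.70, 12.86 and 12.76 on the Tbx1+/+ arrays and 12.70, 12.79 and 12.76 on the Tbx1-/- arrays. Its groups overlapped almost fully, and the difference was -0.02 (SE 0.06, 95% interval -0.16 to 0.12). Ccnd2, cyclin D2, read 12.85, 12.71 and 12.70 against 12.71, 12.80 and 12.66, a difference of -0.03 (95% interval -0.18 to 0.12). It was measured by 7 probe sets, and the other 6 differed by -0.13 to -0.03. Ccnd3, cyclin D3, read 10.46, 10.47 and 10.03 against 10.24, 10.31 and 10.14. Tbx1+/+ replicate 3 was the lowest of its 6 values and the other Tbx1+/+ arrays the highest, so the difference of -0.09 had a wide interval (-0.37 to 0.20). It was -0.23 without that array, -0.019 and -0.013 without Tbx1+/+ replicates 1 and 2, and -0.043 without Tbx1-/- replicate 3.

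The E cyclins activate Cdk2 at the start of S phase. Ccne1, cyclin E1, read 10.99, 10.91 and 10.89 on the Tbx1+/+ arrays and 10.80, 10.86 and 10.85 on the Tbx1-/- arrays. All 3 Tbx1-/- values lay under all Tbx1+/+ values, as they did for 3.25% of all genes tested, but the difference of -0.10 (SE 0.07, 95% interval -0.25 to 0.06) did not pass. On the other probe set of Ccne1, which differed by -0.11, the groups overlapped. Ccne2, cyclin E2, read 9.56, 9.37 and 9.41 against 9.49, 9.37 and 9.32, a difference of -0.05 (95% interval -0.27 to 0.16) that was -0.017 without Tbx1-/- replicate 3. E2f1, the activating factor upstream of most replication genes, read 9.05, 9.07 and 8.88 against 9.07, 8.88 and 8.79. The groups overlapped, with the lowest value on Tbx1-/- replicate 3, and the difference was -0.09 (95% interval -0.33 to 0.16). It ranged from -0.023 without that array to -0.17 without Tbx1-/- replicate 1.

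The 13 replication genes had a median difference of -0.04, and their intervals together spanned -0.36 to 0.24. Pcna, the sliding clamp of DNA polymerase, read 13.53, 13.57 and 13.42 on the Tbx1+/+ arrays and 13.51, 13.51 and 13.38 on the Tbx1-/- arrays. The difference of -0.04 (SE 0.06, 95% interval -0.18 to 0.10) was within the spread of either group. The ribonucleotide reductase subunits, which make deoxyribonucleotides, differed by -0.045 (Rrm1, SE 0.088) and -0.011 (Rrm2, SE 0.055). Tyms, thymidylate synthase, read 8.46, 8.45 and 8.51 against 8.34, 8.37 and 8.32, with no overlap between the groups on this set (3.25% of all genes in this direction). The difference was -0.13 (SE 0.09, 95% interval -0.33 to 0.07), and the gene's other 3 sets, all dimmer, ranged from -0.15 to 0.17. On the set at 0.17 the groups did not overlap either, in the opposite direction, with 6.02, 5.84 and 5.99 against 6.16, 6.11 and 6.09. On their brightest sets, 3.17% of all genes tested did so in that direction.

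Origin licensing genes load the Mcm2 to Mcm7 helicase ring onto DNA. Cdc6, a loading factor, read 10.19, 10.44 and 10.35 on the Tbx1+/+ arrays and 10.08, 10.29 and 10.26 on the Tbx1-/- arrays, a difference of -0.11 (95% interval -0.34 to 0.11) that ranged from -0.18 to -0.05 with 1 array left out. Cdt1, its partner, differed by -0.03 (95% interval -0.25 to 0.19), and Gins2, a subunit of the active helicase, by -0.01 (95% interval -0.18 to 0.15). Among the ring subunits the differences were -0.06 for Mcm2, -0.01 for Mcm3, -0.07 for Mcm4, -0.12 for Mcm5, -0.01 for Mcm6 and -0.02 for Mcm7. Mcm4 read 12.50, 12.31 and 12.38 against 12.60, 12.34 and 12.05. Tbx1-/- replicate 3 was its lowest value and Tbx1-/- replicate 1 its highest, and the difference was 0.07 without replicate 3. Mcm5 read 11.75, 12.02 and 11.84 against 11.59, 11.91 and 11.77, with differences from -0.19 to -0.034 with 1 array left out, and its second set, which also lay at 10.75 or above on every array, differed by 0.02. The brightest sets of 8 genes, namely Mcm2, Mcm3, Mcm4, Mcm5, Mcm7, Rrm2, Aurkb and Cdc20, carry a suffix that marks probes able to match further transcripts; with the brightest set lacking it, chosen after seeing the data, the replication median was -0.03.

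**Figure D3:**
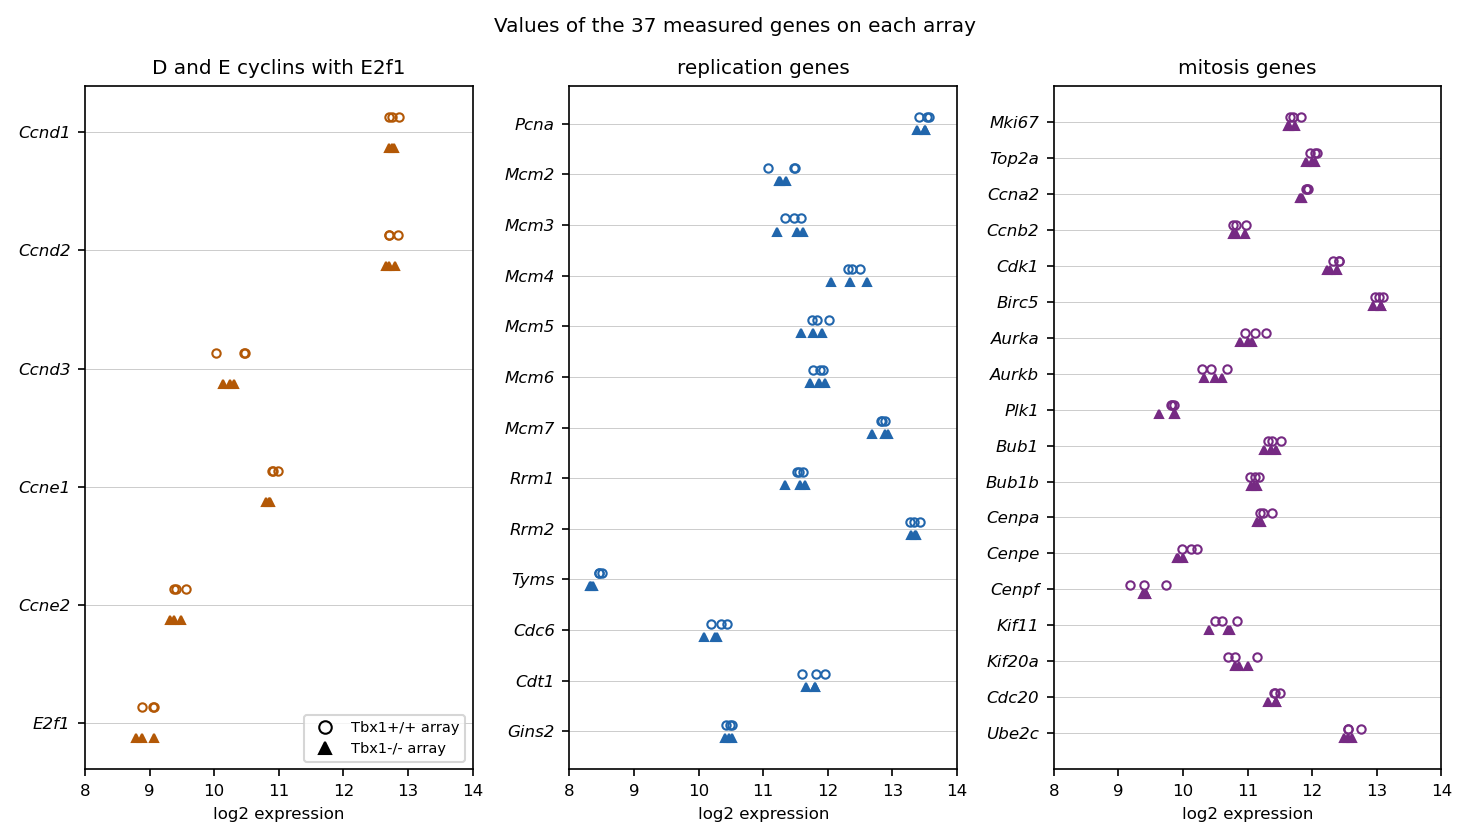
Each row is a gene and the horizontal axis its log2 expression on the brightest probe set; open circles are the 3 Tbx1+/+ arrays and triangles the 3 Tbx1-/- arrays, in 3 panels by role. Circles and triangles of a row overlap for all genes except Ccne1, Tyms and Ccna2 (3.25% of all genes had all Tbx1-/- values lower); levels of different genes come from different probes and are not compared.

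The 18 mitosis genes had a median difference of -0.05, with intervals that together spanned -0.36 to 0.29. Mki67, which encodes the proliferation antigen Ki-67 that coats mitotic chromosomes, read 11.82, 11.70 and 11.65 on the Tbx1+/+ arrays and 11.64, 11.73 and 11.63 on the Tbx1-/- arrays. The Tbx1-/- values lay inside or just under the range of the others, and the difference was -0.06 (SE 0.07, 95% interval -0.22 to 0.10). Top2a, the topoisomerase that untangles sister chromatids, differed by -0.04 (SE 0.06, 95% interval -0.19 to 0.11).

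Cyclins and kinases that drive mitosis came next. Ccna2, cyclin A2, which acts in S phase and G2, read 11.94, 11.91 and 11.92 against 11.81, 11.84 and 11.82. The groups did not overlap, as for 3.25% of all genes in this direction, and the spread within each was small (SD 0.02 and 0.01, n = 3 each). The difference of -0.10 (SE 0.06, 95% interval -0.23 to 0.03) gave an unadjusted p of 0.106 in limma, which sets a gene's own spread against that of genes of like intensity. The other set of Ccna2 differed by -0.09 and its groups overlapped. Cdk1, the mitotic kinase, read 12.41, 12.42 and 12.32 against 12.27, 12.39 and 12.23, a difference of -0.09 (95% interval -0.24 to 0.06) that was -0.052 without Tbx1-/- replicate 3, and Ccnb2, cyclin B2, differed by -0.01 (95% interval -0.21 to 0.19). Aurka, the spindle pole kinase, differed by -0.13 (95% interval -0.35 to 0.10), from 11.28, 11.11 and 10.96 to 10.88, 11.07 and 11.00, and by -0.045 without Tbx1+/+ replicate 1. Aurkb and Birc5, the kinase and the survivin subunit of the chromosomal passenger complex, differed by 0.004 (95% interval -0.27 to 0.28) and -0.01 (95% interval -0.15 to 0.13). Plk1, the polo kinase, differed by -0.04 (95% interval -0.26 to 0.17).

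Genes of the kinetochore, the spindle checkpoint and mitotic exit completed the set. Cenpe, a kinesin that aligns chromosomes, had the largest difference of the 37, -0.16 (SE 0.09, 95% interval -0.36 to 0.03), from 9.99, 10.22 and 10.13 on the Tbx1+/+ arrays to 9.93, 10.00 and 9.91 on the Tbx1-/- arrays. Tbx1+/+ replicate 1 lay within the Tbx1-/- range. On the other Cenpe set the order of the arrays was different: that array was highest at 9.56, and the values were 9.13 and 8.81 on the remaining Tbx1+/+ arrays and 9.36, 9.21 and 8.57 on the Tbx1-/- arrays. Cenpa, the centromeric histone, differed by -0.09 (SE 0.07) and Cenpf, a kinetochore protein, by -0.02 (SE 0.14). Cenpf varied most among the Tbx1+/+ arrays, at 9.18, 9.73 and 9.39, and its Tbx1-/- values of 9.38, 9.43 and 9.43 lay inside that range.

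The checkpoint genes Bub1 and Bub1b differed by -0.05 (SE 0.08) and -0.01 (SE 0.07). A second, dimmer Bub1 set read 6.47, 6.59 and 6.54 against 6.16, 6.33 and 6.34, without overlap. On their brightest sets, 3.25% of all genes tested did so in this direction. The difference of this Bub1 set was -0.26, the largest of any set of these genes. The spindle kinesins Kif11 and Kif20a differed by -0.04 (SE 0.12) and 0.005 (SE 0.12). Cdc20, the activator of the anaphase-promoting complex, differed by -0.05 (SE 0.07), and Ube2c, the ubiquitin-conjugating enzyme of that complex, by -0.06 (SE 0.07). Over the 27 genes with several sets, 53 further sets were measured, of which 40 had lower and 13 higher means on the Tbx1-/- arrays. The 34 of these that averaged above 8 ranged only from -0.13 to 0.05.

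The sign of the differences was more uniform than their size. Means were lower on the Tbx1-/- arrays for 35 of the 37 genes, including all 6 regulators of S phase entry, all 13 replication genes and 16 of 18 mitosis genes, against 52.7% of all genes tested. All 37 were read from the same 6 arrays, so these counts are not independent of each other. Of the 37 genes, 15 had their lowest value on Tbx1-/- replicate 3 (18.4% of all genes tested did) and 12 on Tbx1-/- replicate 1 (19.8%). The highest value of 15 lay on Tbx1+/+ replicate 1 (16.5% of all genes tested). Without Tbx1-/- replicate 3, 26 were lower, and the highest differences were those of Mcm3 (0.10), Aurkb (0.08), Mcm4 (0.07) and Kif11 (0.06). The count was 23 with array weights, a setting that gives less weight to arrays with larger residuals, and 28, 30 and 34 without Tbx1+/+ replicates 1, 2 and 3. It was 29 without Tbx1-/- replicate 1 and 35 without replicate 2. With arrays centred on their medians all 37 were lower. The count was 34 after quantile normalization or with the mean of a gene's sets, and 32 of 36 with sets lacking the shared-probe suffix. Taken by replicate number, the Tbx1-/- array was lower for 29, 22 and 25 of the 37 genes in pairs 1, 2 and 3, against 48.1% to 57.0% of all genes, and it was lower in all 3 pairs for 11 genes, against 12.6% of all genes.

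Values also moved from array to array within a genotype. The median deviation of the 37 genes from their own means over the 6 arrays was 0.065, 0.036 and -0.033 on Tbx1+/+ replicates 1, 2 and 3 and -0.037, 0.030 and -0.062 on Tbx1-/- replicates 1, 2 and 3, so the genotypes overlapped: Tbx1+/+ replicate 3 lay below Tbx1-/- replicate 2. Mitosis genes had their highest value on Tbx1+/+ replicate 1 in 11 of 18 cases, but replication genes in 1 of 13, and 16.5% of all genes did so. With 1 array left out the median difference ranged from -0.094 to -0.025 for the cyclins with E2f1, from -0.061 to -0.0085 for replication genes and from -0.09 to -0.027 for mitosis genes. Without Tbx1-/- replicate 3 these medians were -0.025, -0.02 and -0.03. The part of the trophoblast, macrophage, epithelial and erythroid markers of that array in the shift was not tested, nor was that of the muscle progenitor and epithelial markers, whose sums did not overlap between the genotypes.

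**Figure D4:**
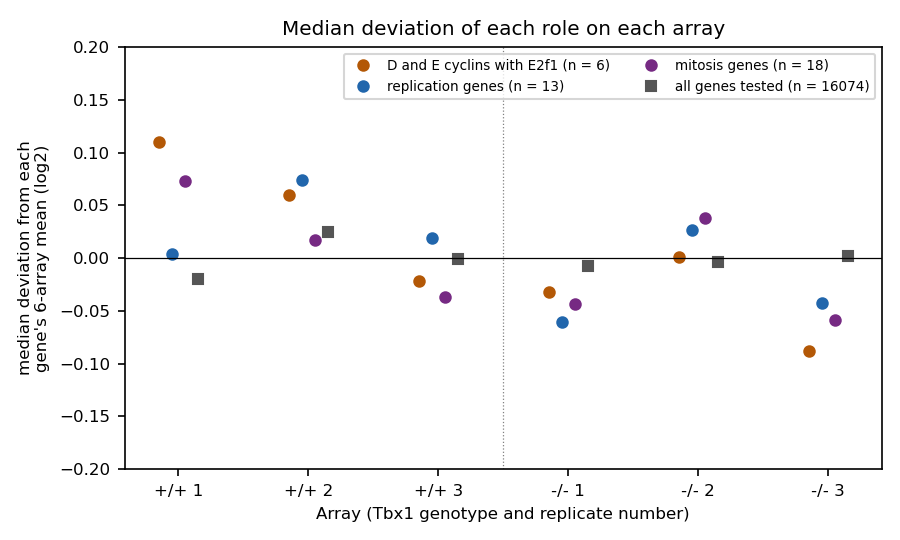
For each array the points give the median deviation, on the log2 scale, of the genes of a role from each gene's mean over the 6 arrays; grey squares are all 16074 genes tested. The members' points lie between -0.088 and 0.11, those of Tbx1+/+ replicate 3 and Tbx1-/- replicate 2 cross the order of the genotypes, and the squares stay within 0.025 of 0.

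**Figure D5:**
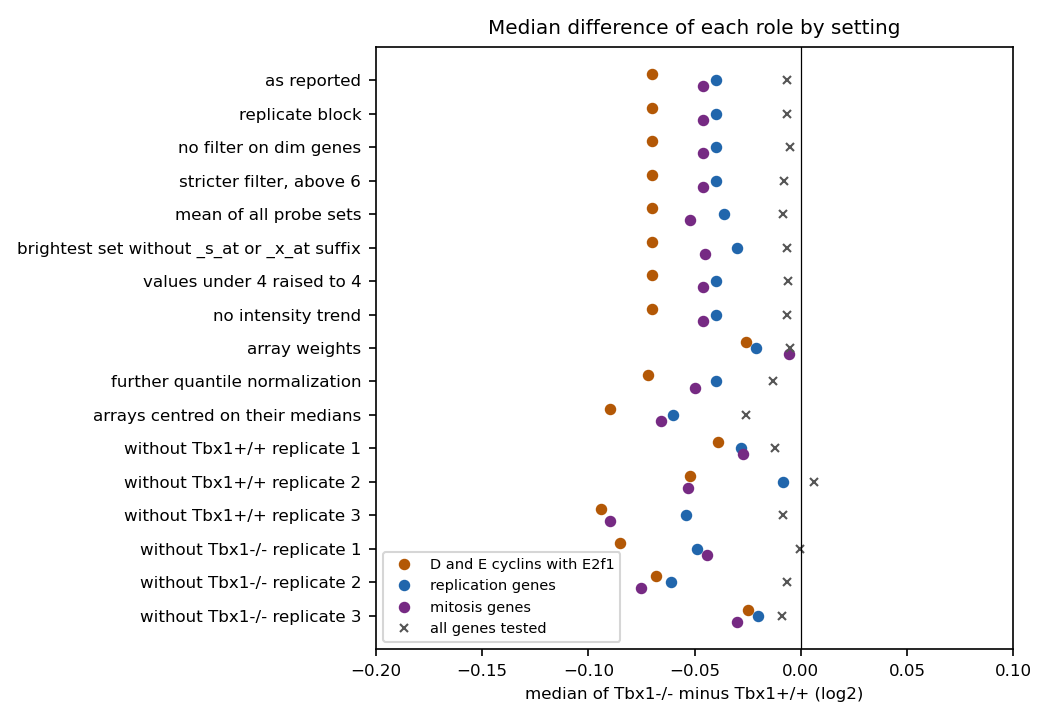
Rows are processing settings and points the median difference, Tbx1-/- minus Tbx1+/+ on the log2 scale, of the genes of each role; crosses are all genes tested. Medians of the 3 roles are under 0 in every setting shown and between -0.094 and -0.0054.

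Grouped by promoter words, median differences were -0.03 for the 7 genes with an E2F word and -0.05 for the 22 matched genes without, and -0.05 for the 15 with a CHR word and -0.07 for the 14 without. Genes with a CCAAT word had a median of -0.04 (22 genes) and those without of -0.09 (7 genes). These medians were not compared by a test.

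Other cell cycle genes, taken from lists fixed by name, were compared alongside. Of 121 tested, limma called 0, while 1 had an unadjusted p below 0.05, and their median difference was -0.04. All Tbx1-/- values lay under all Tbx1+/+ values for 6 of the 121 and above them for 2. Over all genes tested the shares were 3.25% and 3.17%. The 6 include Dbf4, Gins1, Smc4 and Nuf2, and the 2 are Cdkn2b and Mycn. The 40 other replication genes had a median of -0.03, with 30 lower and 10 higher means. Those with the smallest p were Dbf4, the activator of the origin-firing kinase Cdc7, at -0.13 (SE 0.07), Gins1 at -0.11 (SE 0.07) and the DNA ligase gene Lig1 at -0.12 (SE 0.07). The 53 other mitosis genes had a median of -0.06, with 46 lower and 7 higher means, led by the condensin subunit Smc4 at -0.10 (SE 0.07), the kinetochore gene Nuf2 at -0.12 (SE 0.08) and Ckap2 at -0.13 (SE 0.09).

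The inhibitors of cyclin-dependent kinases, which hold cells in G1, had a median of 0.04 and higher means for all 7, none called. Their differences ran from 0.0 to 0.57, and 7598 of the 16074 genes tested had higher means. Cdkn2b, encoding p15, read 4.48, 4.60 and 4.27 on the Tbx1+/+ arrays and 4.79, 5.42 and 4.83 on the Tbx1-/- arrays. The groups did not overlap, as for 3.17% of all genes in this direction, and the difference was 0.57 (SE 0.19, unadjusted p = 0.0153 and adjusted p = 1.00 in limma), 0.36 to 0.68 with 1 array left out. These values lie just above the filter, where array signal is weak. Cdkn1a, encoding p21, differed by 0.05 (SE 0.13) and Cdkn2a by 0.04 (SE 0.11). The difference of Cdkn1a was -0.02 without Tbx1-/- replicate 3 and ranged from -0.06 to 0.13 with 1 array left out, so its sign turned. Cdkn2a read 4.18 to 4.3, also just above the filter. A further list held 21 genes, namely G1 kinases, members of the retinoblastoma and E2F families and other regulators, Mycn among them. Of these, 12 had lower and 9 higher means (median -0.003). Mycn, a driver of growth in embryonic mesenchyme, read 12.38, 12.08 and 12.43 against 12.65, 12.44 and 12.49, all higher, as for 3.17% of all genes tested. Its difference was 0.22 (SE 0.10, unadjusted p = 0.0555 in limma). Rb1, the retinoblastoma gene, differed by 0.21 (SE 0.17) and E2f2 by -0.19 (SE 0.13), and neither passed.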

How the data were processed

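The authors deposited 1 log2 value for each probe set and array, computed with GCRMA per the submitters' processing notes (version not given in the sources). That the scale is log2 was inferred from the range of 1.95 to 15.11. Normalization between arrays removes a shift shared by most genes. The table held 45101 probe sets; 34958 had 1 gene symbol, and the brightest set of each gene was used. Genes above 4 on at least 3 arrays were kept (16074 of 18194).

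The genotypes were compared with limma 3.58.1 in R 4.3.3 (lmFit, eBayes with an intensity trend, genotype only), with Benjamini-Hochberg adjustment over all genes tested and a threshold of 0.05. The fit was tested on simulated data. Each genotype has replicates labelled 1, 2 and 3; over all genes, deviations of same-numbered arrays from their genotype means had correlations of 0.261, 0.13 and 0.135, and those of differently numbered arrays ran from -0.195 to 0.0647. The labels state no pairing, so the reported fit did not use the numbers. Its SEs, intervals and p-values are unpaired. With the replicate number as a block, an alternative run, the lowest unadjusted p of a member was 0.0624 in limma (Cenpe). Levels summed over markers are of linear values. The rule for named genes was Tbx1, every member, the 3 genes with the smallest p of each other cell cycle list and markers beside a result; Tcf21 was named for scale. The members and lists were chosen with earlier results of these data known. With 3 arrays a genotype, precision is limited by their number.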

Additional observations from a re-analysis of the deposited data

How the results depend on the processing

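None of the 37 genes and none of the other cell cycle lists was called in limma under any alternative run, namely the replicate block, no filter, a filter at 6, the mean of a gene's sets, sets without the shared-probe suffix (36 genes, as Aurkb had no such set), values raised to 4, no intensity trend, array weights, quantile normalization, median centring and each array left out, and the block changed no member's call. With 1 array left out the 95% intervals of the 37 genes reached at most -0.48 and 0.38. Over all genes, higher and lower calls were 2 and 4 as reported, 4 higher with the replicate block, 0 higher and 2 lower without the filter, with values raised to 4 or without the trend, 0 and 0 with the mean of sets (477 genes at an unadjusted p under 0.05 in limma), and 1 higher after quantile normalization or median centring. With 1 array left out they ranged from 0 to 14 higher and 0 to 8 lower, both highest without Tbx1-/- replicate 3. Tbx1 differed by 0.34 to 0.54 with 1 array left out.

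Signs of small differences turned, and the cause was not tested. With array weights Ccnd2 stood at 0.028, Ccnd3 at 0.026, Pcna at 0.0034, Mcm3 at 0.052, Mcm6 at 0.076, Mcm7 at 0.011, Gins2 at 0.027, Top2a at 0.0097, Ccnb2 at 0.051, Bub1 at 0.016, Bub1b at 0.034 and Kif11 at 0.046. With the mean of sets Mcm6 was 0.0022, Top2a 0.0092 and Aurkb -0.018. With sets lacking the suffix, chosen after seeing the data, Mcm3 was 0.029, Mcm5 0.018 and Mcm7 0.016. Birc5 was 0.0003 after quantile normalization, and Aurkb was -0.016 and Kif20a -0.015 with median centring. With 1 array left out, Ccnd1 ranged from -0.059 to 0.02, Ccnd2 from -0.067 to 0.019, Ccne2 from -0.1 to 0.0026, Pcna from -0.085 to 0.0025, Mcm2 from -0.2 to 0.0061, Mcm3 from -0.092 to 0.1, Mcm4 from -0.21 to 0.07, Mcm6 from -0.064 to 0.052, Mcm7 from -0.068 to 0.052, Rrm1 from -0.11 to 0.044, Rrm2 from -0.045 to 0.03, Cdt1 from -0.12 to 0.052 and Gins2 from -0.039 to 0.015. Among mitosis genes Ccnb2 ranged from -0.064 to 0.05, Birc5 from -0.042 to 0.032, Aurkb from -0.084 to 0.11, Plk1 from -0.09 to 0.038, Bub1 from -0.092 to 0.0096, Bub1b from -0.051 to 0.02, Cenpf from -0.15 to 0.13, Kif11 from -0.11 to 0.062, Kif20a from -0.089 to 0.14 and Ube2c from -0.097 to 0.0028.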
